A study of Mus musculus with 6 samples.

Results

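Cholesterol synthesis was examined through Srebf2 and 7 enzymes of the mevalonate and sterol route (Hmgcs1, Idi1, Fdps, Fdft1, Sqle, Lss and Cyp51) in RNA-seq of sorted mouse microglia, the resident macrophages of the brain. The genes were chosen by name. Of these 8 genes 7 had a row among the 20129 genes of the table, and the expression of Hmgcs1 was not analysed here. The study compared 3 libraries of Il3-/-5xFAD mice, which lack the cytokine interleukin-3 (replicates 1, 2 and 3), with 3 libraries of 5xFAD mice (replicates 4, 5 and 6). All 6 libraries came from animals of the strain C57BL6/J aged 5 months that carry 5xFAD, a transgene set with mutant human amyloid genes under the neuronal Thy1 promoter, so the 5xFAD controls also deposit amyloid, and no library without it was analysed here. Each library pooled the live CD45+ CD11b+ cells of 2 male and 2 female mice.

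Cholesterol is built from acetyl-CoA through mevalonate, isoprenoid diphosphates, squalene and lanosterol. SREBP-2, the product of Srebf2, is held in the endoplasmic reticulum membrane while sterols are plentiful; when they fall it is carried to the Golgi and cut, and the released part binds sterol regulatory elements in the promoters of the enzyme genes and of its own gene, often beside bound NF-Y or Sp1. In the adult brain most cholesterol is made by glia, and microglia also take it up from debris and export it on apolipoprotein E.

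The promoters of Srebf2, Cyp51 and Lss are shown. Those of Srebf2 and Cyp51 match a loose sterol-type string that was added after the sequences had been read. That of Lss had no match to it in the window used, which does not show that Lss lacks a sterol element. RefSeq (GRCm38.p6) gave a window, 250 bases before to 50 bases after the start, for 4 of the 7 measured genes; this build is not that of the deposited table, and no read was placed by it here. Capitals mark matches on either strand to CCAAT (bound by NF-Y; ATTGG on the other strand), GGGCGG (bound by Sp1; CCGCCC on the other strand) and ATCACNNCA, a loose form of the sterol element that was added after the sequences had been read and that shares most of its letters with the sterol element TCACNCCAC, searched as well.
Srebf2 (chr15:82147019-82147318, plus strand): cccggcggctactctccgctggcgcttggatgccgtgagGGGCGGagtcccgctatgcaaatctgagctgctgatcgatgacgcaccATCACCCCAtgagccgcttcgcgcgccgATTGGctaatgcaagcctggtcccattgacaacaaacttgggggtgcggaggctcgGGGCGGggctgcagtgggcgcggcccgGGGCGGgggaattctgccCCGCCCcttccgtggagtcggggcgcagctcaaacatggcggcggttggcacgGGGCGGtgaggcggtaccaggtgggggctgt
Cyp51 (chr5:4104648-4104947, minus strand): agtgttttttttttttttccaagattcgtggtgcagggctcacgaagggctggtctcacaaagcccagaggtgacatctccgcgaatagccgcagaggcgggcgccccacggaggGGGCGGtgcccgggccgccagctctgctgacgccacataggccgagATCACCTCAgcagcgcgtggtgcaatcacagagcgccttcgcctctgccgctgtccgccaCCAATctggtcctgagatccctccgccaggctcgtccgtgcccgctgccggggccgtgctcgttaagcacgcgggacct
Lss (chr10:76531355-76531654, plus strand): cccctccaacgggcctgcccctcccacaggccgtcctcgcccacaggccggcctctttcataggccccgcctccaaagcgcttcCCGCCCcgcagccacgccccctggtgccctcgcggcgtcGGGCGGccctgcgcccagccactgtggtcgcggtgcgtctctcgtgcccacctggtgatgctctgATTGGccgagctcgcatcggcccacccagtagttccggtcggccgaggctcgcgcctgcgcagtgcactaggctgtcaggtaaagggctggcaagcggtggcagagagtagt
The letters ATCACCCCA began 163 bases before the Srebf2 start and ATCACCTCA 89 bases before the Cyp51 start. Neither the Lss nor the Idi1 window held ATCACNNCA, and none of the 4 windows held TCACNCCAC. Hmgcs1, whose expression was not analysed here, also had a window. That window held TCACCCCAC, a match to TCACNCCAC that began 137 bases before the start, and it did not hold ATCACNNCA. Of 32851 such RefSeq windows, 2.77% held ATCACNNCA, 1.24% TCACNCCAC, 37.4% CCAAT and 35.7% GGGCGG. All 4 windows held CCAAT and GGGCGG. A match describes these letters only and is not a site.

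**Figure D1:**
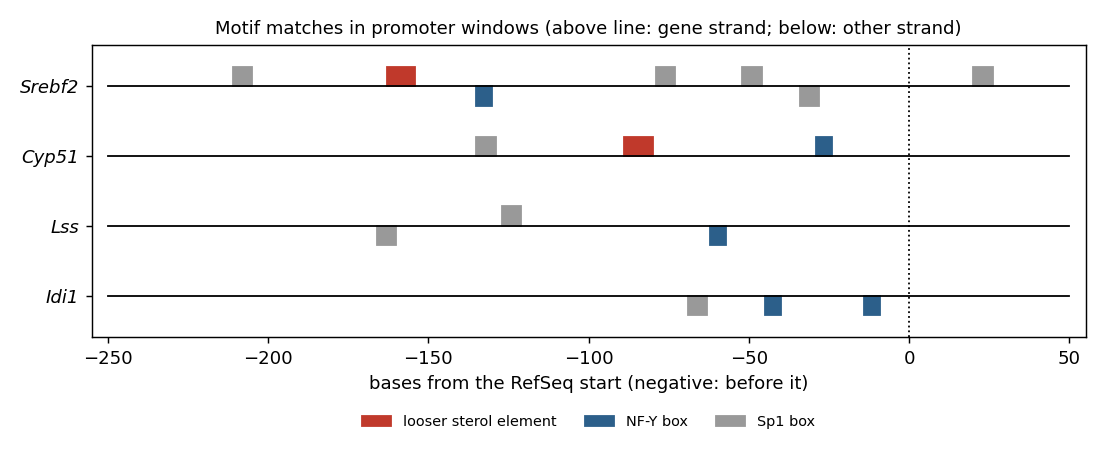
Motif matches in the promoter windows of Srebf2, Cyp51, Lss and Idi1, against the distance in bases from the RefSeq start; boxes above a line are on the gene's strand, boxes below it on the other strand. The looser sterol element was added after the sequences had been read. It appears in Srebf2, 163 bases before the start, and in Cyp51, 89 bases before it, and in neither of the other windows.

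Expression is in CPM (counts per 1000000 library reads), and library totals ran from 27970850 to 37605490 reads. Il3 had no read in any Il3-/-5xFAD library, where a count of 0 allows up to 0.0909 to 0.107 CPM (counting error only), and 29 to 61 reads in the 5xFAD libraries. Of 11900 tested genes 105 (0.882%) passed an adjusted p of 0.05 with limma on log2(CPM + 1), and the median log2 difference over all of them was -0.00059. Markers of the labelled cell type were abundant: 10 of 10 microglial markers were tested and none passed. They summed to 38109 to 41646 CPM in Il3-/-5xFAD and 36436 to 38564 CPM in 5xFAD libraries. Of these 10, 9 had positive differences (median log2 difference 0.13) and 2 had an unadjusted limma p under 0.05. For 3 of the 10 the groups did not overlap, each higher in Il3-/-5xFAD. Of all tested genes, 16.5% had such a p and 9.65% were higher without overlap.

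None of the 7 genes passed the test between the genotypes. Sqle had the largest difference, with a mean CPM in Il3-/-5xFAD of 0.489 times that in 5xFAD, and its interval lay below 0 before adjustment; Fdps and Fdft1 were lower in every Il3-/-5xFAD library than in any 5xFAD library; Srebf2 and Cyp51 were lower on average with overlapping groups; Idi1 and Lss had differences near 0. Of the 7 differences 6 were negative, against 50.1% of all tested genes, and their median was -0.26. The groups did not overlap for 2 of the 7 genes, both lower in Il3-/-5xFAD, where 11.5% of all tested genes had that pattern. The p-values measure the spread between 3 pools per genotype, and in sorted pools fewer cells of a kind and less RNA per cell cannot be told apart.

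Srebf2 was the most abundant of the set. It had 60.7, 56.2 and 69.3 CPM in Il3-/-5xFAD replicates 1, 2 and 3, against 64.4, 73.1 and 86.8 CPM in 5xFAD replicates 4, 5 and 6. The groups overlapped, since Il3-/-5xFAD replicate 3 lay above 5xFAD replicate 4. Its log2 difference was -0.26 ± 0.12 (SE), with a 95% interval from -0.52 to 0.0033 and a limma adjusted p of 0.308; without 5xFAD replicate 6, the highest library, it was -0.15.

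Idi1 encodes the isomerase that turns isopentenyl diphosphate into dimethylallyl diphosphate. It was the lowest of the 7 genes, with 1.28, 1.38 and 1.46 CPM in Il3-/-5xFAD replicates 1, 2 and 3, against 1.07, 2.15 and 0.984 CPM in 5xFAD replicates 4, 5 and 6. All Il3-/-5xFAD libraries fell inside the 5xFAD range, in which replicate 5 stood well above the others. These values rest on 30 to 63 reads per library, and the log2 difference of 0.01 ± 0.28 (SE) had an interval from -0.61 to 0.63 (limma adjusted p = 0.988).

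Fdps encodes farnesyl diphosphate synthase, whose product feeds squalene, the dolichols and protein prenylation. It had 10.5, 9.87 and 10.8 CPM in Il3-/-5xFAD replicates 1, 2 and 3, against 13.5, 13.3 and 12.9 CPM in 5xFAD replicates 4, 5 and 6. The groups were tight and apart, and 5xFAD replicate 4 was the highest library. The log2 difference was -0.32 ± 0.15 (SE; interval -0.65 to 0.010; limma adjusted p = 0.318). Of the stretches of 50 bases in Fdps transcripts 23.4% also occur in Gm43738, which was not analysed here, so reads could be split between them and the Fdps value is uncertain.

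Fdft1 encodes squalene synthase, the first enzyme committed to sterols. It had 8.90, 8.10 and 8.31 CPM in Il3-/-5xFAD replicates 1, 2 and 3, against 9.26, 13.2 and 11.8 CPM in 5xFAD replicates 4, 5 and 6. The groups did not overlap, but 5xFAD replicate 4 lay closer to the Il3-/-5xFAD libraries than to the other 5xFAD libraries. The log2 difference was -0.39 ± 0.18 (SE; interval -0.78 to 0.0037; limma adjusted p = 0.307). Fdft1 shares 9.38% of its stretches of 50 bases with Gm6781, which had at most 6 reads in a library, and Idi1 shares 17.7% with Gm13502, which had at most 1 read.

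Sqle encodes squalene epoxidase, a rate-limiting enzyme below mevalonate. It had 2.89, 3.59 and 2.49 CPM in Il3-/-5xFAD replicates 1, 2 and 3, against 3.22, 7.48 and 7.63 CPM in 5xFAD replicates 4, 5 and 6. 5xFAD replicates 5 and 6 were high, while replicate 4 lay inside the Il3-/-5xFAD range. The mean was 2.99 ± 0.557 CPM in Il3-/-5xFAD and 6.11 ± 2.51 CPM in 5xFAD (SD, n = 3 each), a ratio of 0.489. These means rest on 82 to 101 reads per Il3-/-5xFAD library and 90 to 287 reads per 5xFAD library. After log2(CPM + 1), a scale that shrinks differences between low values, the difference was -0.77 ± 0.29 (SE), with an interval from -1.41 to -0.14, an unadjusted limma p of 0.0212 and an adjusted p of 0.208. On the recovered reads, where 1 CPM is not added, edgeR and DESeq2 gave -1.03 each (adjusted p of 0.204 and 0.0890), and with a pseudocount of 5 the difference was -0.45. The unadjusted limma p was under 0.05 for this gene alone of the 7, and for 16.5% of all tested genes. Without 5xFAD replicate 4 the difference was -1.11 ± 0.24 (SE) and passed (limma adjusted p = 0.0478), in a fit where 1.91% of genes passed; it passed in none of the other 15 alternatives that tested it, with adjusted p up to 0.583.

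Lss encodes lanosterol synthase, which closes the sterol rings. It had 11.8, 11.6 and 9.31 CPM in Il3-/-5xFAD replicates 1, 2 and 3, against 10.2, 12.2 and 10.5 CPM in 5xFAD replicates 4, 5 and 6. The ranges nearly coincided. The log2 difference was -0.01 ± 0.17 (SE; limma adjusted p = 0.986), with an interval from -0.38 to 0.36.

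Cyp51 encodes lanosterol demethylase. It had 19.5, 17.6 and 24.6 CPM in Il3-/-5xFAD replicates 1, 2 and 3, against 16.8, 30.8 and 26.8 CPM in 5xFAD replicates 4, 5 and 6. 5xFAD replicate 4 was the lowest of all 6 libraries and replicates 5 and 6 the highest, so the 5xFAD group enclosed the Il3-/-5xFAD group. The log2 difference was -0.23 ± 0.20 (SE; interval -0.67 to 0.22; limma adjusted p = 0.629), and it moved both ways as single libraries were left out, to -0.48 without 5xFAD replicate 4, -0.36 without Il3-/-5xFAD replicate 3, -0.13 without Il3-/-5xFAD replicate 2 and -0.06 without 5xFAD replicate 5 (limma adjusted p of 0.177, 0.371, 0.855 and 0.948).

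**Figure D2:**
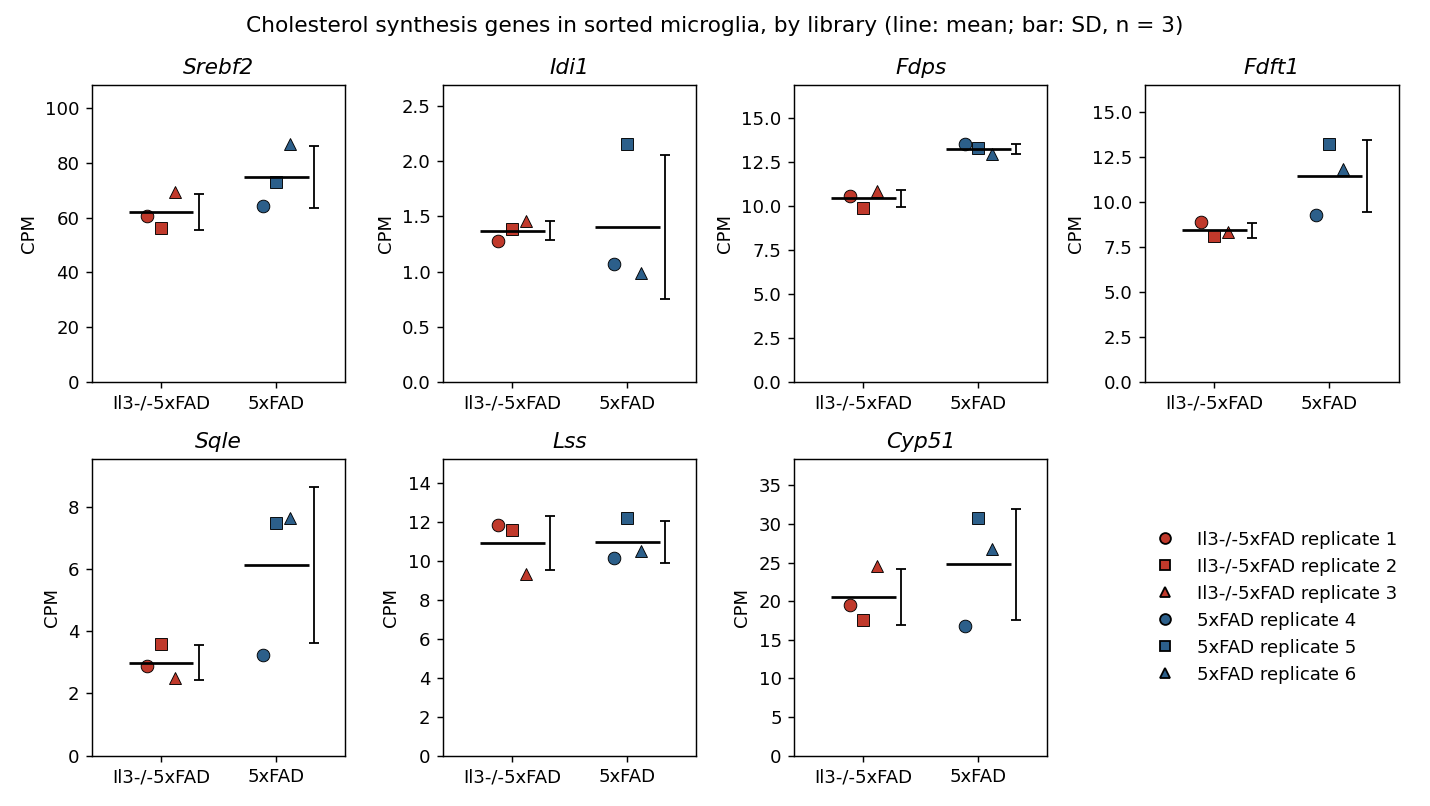
CPM of each measured gene in every library, Il3-/-5xFAD (red) left of 5xFAD (blue), with the mean as a line and the SD as a bar (n = 3 each). For Sqle, 5xFAD replicates 5 and 6 lie at 7.48 and 7.63 CPM, while replicate 4 at 3.22 CPM lies among the Il3-/-5xFAD libraries; Fdps is separated between the groups and Lss is not.

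Divided by the length of the longest GENCODE transcript, the mean level over the 6 libraries was 13.5 CPM per kilobase for Srebf2, 5.77 for Cyp51, 4.00 for Fdps, 2.69 for Fdft1, 1.56 for Lss, 1.02 for Sqle and 0.458 for Idi1. In that order of levels per kilobase, the library ranges did not overlap between Srebf2 and Cyp51 or between Fdft1 and Lss, while those of Cyp51 and Fdps, Fdps and Fdft1, Lss and Sqle, and Sqle and Idi1 did. In 5xFAD the coefficient of variation was 46.4% for Idi1, 41.0% for Sqle and 29.1% for Cyp51, against 9.94% for Lss and 2.11% for Fdps. In Il3-/-5xFAD the coefficients ran from 4.69% (Fdps) to 18.7% (Sqle), with 6.58% for Idi1.

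Across libraries the genes had their peaks in 5xFAD. The highest library was 5xFAD replicate 5 for 4 genes (Idi1, Fdft1, Lss and Cyp51), 5xFAD replicate 6 for 2 (Srebf2 and Sqle) and 5xFAD replicate 4 for Fdps, and never an Il3-/-5xFAD library. 5xFAD replicate 5 was among the 2 highest libraries for all 7 genes. How often each library was highest over all tested genes was not computed, so these counts are not read as particular to this set. Averaged over the genes after standardising each over the 6 libraries, 5xFAD replicate 4 scored -0.38, within the range of the Il3-/-5xFAD replicates (-0.57 to -0.38), whereas 5xFAD replicates 5 and 6 scored 1.20 and 0.57. Among 9751 other tested genes averaging 5 CPM or more, the profiles most like this average were those of Gas7, Polr3g, 2210021J22Rik, Arl6ip4 and Sept9, with Pearson coefficients of 0.975 to 0.989 over the 6 libraries, which are given as a description; none of these 5 genes passed between the genotypes (limma adjusted p from 0.152 to 0.457).

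None of 15 other tested enzyme genes of mevalonate and sterol synthesis passed; 12 had negative differences, against 50.1% of all tested genes, and the median was -0.14. Mvk, mevalonate kinase, had the largest difference over all libraries, -0.52 ± 0.23 (SE; limma adjusted p = 0.278), with 8.60, 7.88 and 4.49 CPM in Il3-/-5xFAD replicates 1, 2 and 3, against 11.6, 8.85 and 10.2 CPM in 5xFAD replicates 4, 5 and 6. Without Il3-/-5xFAD replicate 3, its lowest library, the Mvk difference was -0.27. Mvk, Pmvk (phosphomevalonate kinase), Ggps1 (geranylgeranyl diphosphate synthase) and Ebp (a sterol isomerase) were the 4 genes of the 15 whose groups did not overlap, each lower in Il3-/-5xFAD, a pattern that 11.5% of all tested genes had. Sc5d, a sterol desaturase, overlapped and differed by -0.47 ± 0.18 (SE; limma adjusted p = 0.215). The most abundant of the 15, Lbr, which doubles as a sterol reductase and a lamin receptor, and Dhdds of dolichol synthesis differed by -0.03 ± 0.13 and 0.02 ± 0.12 (SE). Pmvk, Ggps1, Ebp and Sc5d were named after their values were seen.

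**Figure D3:**
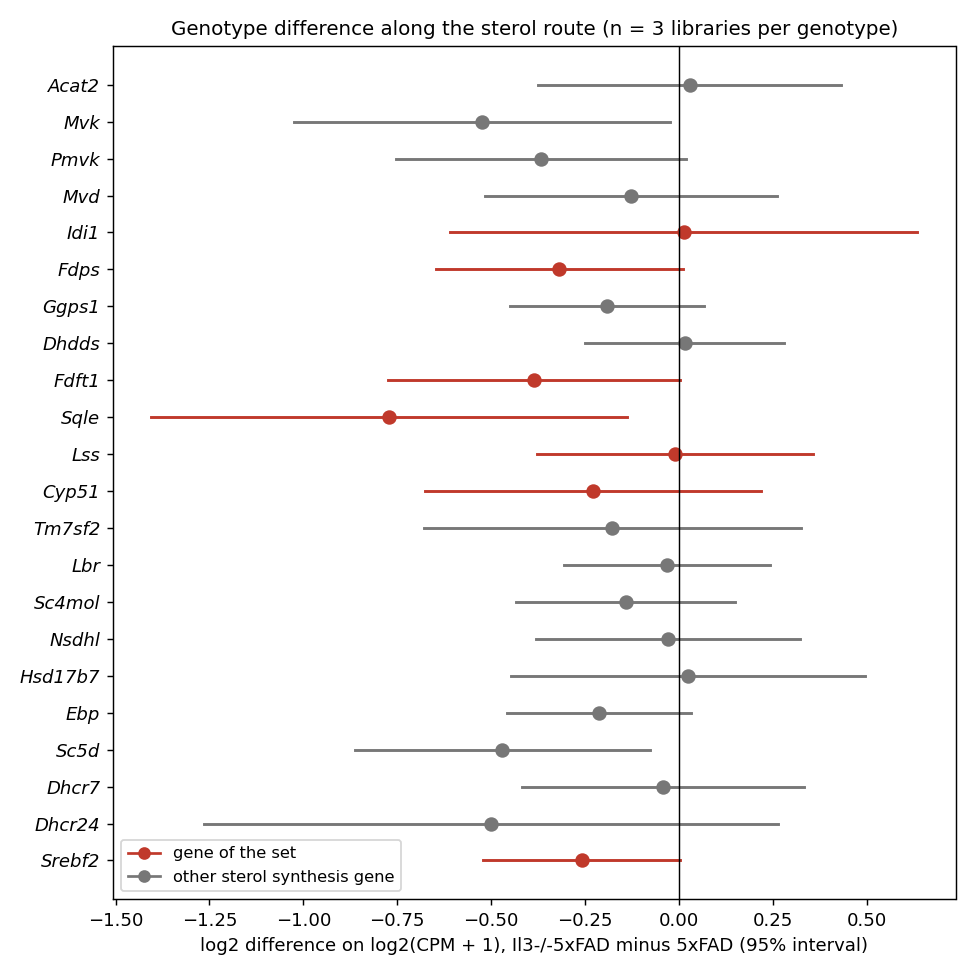
Log2 differences on the log2(CPM + 1) scale, Il3-/-5xFAD minus 5xFAD, with 95% intervals from limma. Genes are in the order of the route, with the side-branch genes Ggps1 and Dhdds after Fdps and the regulator Srebf2 last. Red marks the 7 genes of the set and grey the other 15. Most points lie left of 0, and the intervals of Sqle, Mvk and Sc5d alone exclude 0 before adjustment.

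These 22 genes include the regulator Srebf2 and the side-branch genes Ggps1 and Dhdds. Over the 22, the highest library was 5xFAD replicate 5 for 11 and 5xFAD replicate 6 for 5 of them. The lowest was Il3-/-5xFAD replicate 2 for 10. 5xFAD replicate 4 was highest for 2 genes and lowest for 2. The like shares over all tested genes were not computed, so these counts are not read as particular to these genes.

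**Figure D4:**
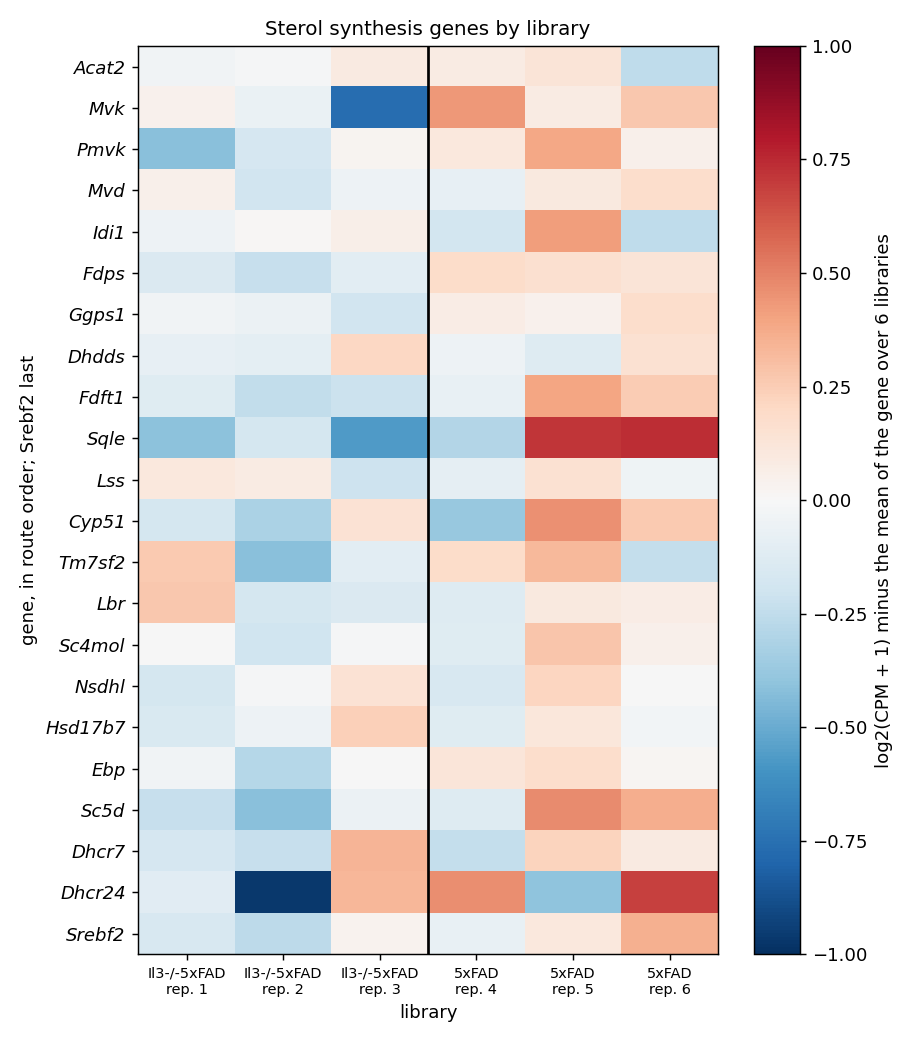
Deviation of each gene's log2(CPM + 1) from its mean over the 6 libraries, with the 3 Il3-/-5xFAD libraries left of the 3 5xFAD libraries. 5xFAD replicates 5 and 6 are red for Fdft1, Sqle, Cyp51 and Sc5d, while 5xFAD replicate 4 is blue for each of them.

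Of 10 tested genes for SREBP processing, the machinery that controls SREBP-2, none passed, the groups overlapped for each, and the median was 0.06. Scap, the escort protein of SREBP-2, differed by 0.11 ± 0.09 (SE). Insig1, whose protein holds Scap back, differed by 0.06 ± 0.12, and Srebf1, the relative that drives fatty acid genes, by -0.05 ± 0.10 (SE). The most abundant of the 10, Mbtps1, the protease that first cuts SREBP-2, and Erlin2, an endoplasmic reticulum membrane protein, differed by 0.07 ± 0.09 and 0.08 ± 0.08, and the largest difference was that of Rnf139 (-0.12 ± 0.10).

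Genes of sterol uptake and transport did not pass either (0 of 8, median -0.04). The unadjusted p was under 0.05 for 2 of the 8, against 16.5% of all tested genes: Npc2, which was lower in Il3-/-5xFAD, and Stard3, which moves sterol between membranes and was higher (log2 difference 0.18 ± 0.08, limma adjusted p = 0.2497). Of the 8 genes, 2 were lower without overlap between the groups, Npc2 among them, and 1, Stard3, was higher without overlap. Of all tested genes 11.5% were lower and 9.65% higher without overlap. Stard4, a sterol carrier that SREBP-2 also drives, differed by -0.39 ± 0.19 (SE; limma adjusted p = 0.344), and by -0.26 without 5xFAD replicate 6. Npc2, which hands cholesterol out of the lysosome, was at 810 ± 115 CPM in Il3-/-5xFAD and 1069 ± 88.2 CPM in 5xFAD (SD, n = 3 each; log2 difference -0.41 ± 0.11, limma adjusted p = 0.0958) and passed with DESeq2 (adjusted p = 0.0168, where 5.08% of all genes passed) and without Il3-/-5xFAD replicate 3 (limma adjusted p = 0.0386, where 4.99% passed). Its partner Npc1 differed by -0.01 ± 0.10.

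Of 12 genes of LXR signalling, efflux and esterification 1 fell, Apoe, which carries sterol out of the cell. Of all tested genes 0.882% passed in either direction. Apoe had 1724, 3097 and 3743 CPM in Il3-/-5xFAD replicates 1, 2 and 3, against 4929, 7500 and 8880 CPM in 5xFAD replicates 4, 5 and 6 (log2 difference -1.35 ± 0.27, limma adjusted p = 0.0438). That call was lost in 10 of 17 alternatives, among them edgeR (adjusted p = 0.0705) and leaving out 5xFAD replicate 5 or 6 or Il3-/-5xFAD replicate 2. Soat1, which esterifies cholesterol for storage, and Nceh1, which frees it again, differed by -0.30 ± 0.08 and -0.76 ± 0.18 (SE, limma adjusted p of 0.0971 and 0.0726). Both passed with DESeq2, where 5.08% of all genes passed. Nceh1 also passed without 5xFAD replicate 4 (limma adjusted p = 0.0191), where 1.91% of all genes passed. The exporter gene Abca1 differed by 0.22 ± 0.09 (limma adjusted p = 0.233), and by 0.09 after each library's transcript-length trend was removed. Of the 12 genes, 5 were lower in Il3-/-5xFAD with no overlap between the groups (Apoe, Soat1, Nceh1, the LXR gene Nr1h3 and its partner Rxra) and 1 was higher with no overlap (Abca1), against 11.5% of all tested genes lower and 9.65% higher without overlap. Of 11 fatty acid genes under SREBP-1 none passed (median -0.05): Acly, which makes cytosolic acetyl-CoA, and Fasn, the fatty acid synthase, differed by -0.00046 ± 0.09 and 0.10 ± 0.12, and Scd2, a desaturase, by -0.16 ± 0.13. Scd1, another desaturase, had 2.35, 2.56 and 9.28 CPM in Il3-/-5xFAD replicates 1, 2 and 3, against 5.29, 5.06 and 7.42 CPM in 5xFAD replicates 4, 5 and 6. It passed only without Il3-/-5xFAD replicate 3 (limma adjusted p = 0.0456), where 4.99% of all genes passed. Elovl6, an elongase, had 0.907, 0.781 and 0.697 CPM in Il3-/-5xFAD replicates 1, 2 and 3, against 1.75, 2.12 and 1.596 CPM in 5xFAD replicates 4, 5 and 6; it reached the minimum of 1 CPM in 3 libraries through the 5xFAD libraries alone, so its difference is not read as a result.

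The summed markers of several other cell types were lower in Il3-/-5xFAD, as were the mean values of Sqle, Fdft1 and Fdps. The 12 neutrophil markers summed to 911 to 1469 CPM in Il3-/-5xFAD and 1918 to 3938 CPM in 5xFAD. Of 11 tested neutrophil markers 5 fell, where 0.882% of all tested genes passed in either direction. Monocyte markers summed to 113 to 233 CPM in Il3-/-5xFAD and 239 to 446 CPM in 5xFAD (3 of 9 fell). Lymphocyte markers summed to 53.2 to 67.2 CPM in Il3-/-5xFAD and 95.04 to 163 CPM in 5xFAD (3 of 9 fell). Choroid plexus markers summed to 63.7 to 133 CPM in Il3-/-5xFAD and 185 to 522 CPM in 5xFAD (2 of 5 fell). Among cells that make much cholesterol, oligodendrocyte markers summed to 161 to 178 CPM in Il3-/-5xFAD and 193 to 210 CPM in 5xFAD. Of these markers Mog, Cldn11, Ermn, Opalin and Mal were each at 0 in at least 1 library. Astrocyte markers summed to 136 to 158 CPM in Il3-/-5xFAD and 156 to 184 CPM in 5xFAD, with Aqp4, Gja1 and Sox9 at 0 in some library. Of the 7 tested astrocyte markers 6 were lower in Il3-/-5xFAD (median log2 difference -0.75), 4 had an unadjusted limma p under 0.05 and 3 were lower without overlap. Of the 5 tested oligodendrocyte markers 4 were lower (median -0.41), 3 had such a p and 2 were lower without overlap. Of all tested genes, 50.1% had a negative difference, 16.5% had such a p and 11.5% were lower without overlap. Whether a marker reached 1 CPM in 3 libraries through the 5xFAD libraries alone was not checked, so the counts of markers are not read as a result. No marker of either list passed, nor did any neuronal, endothelial or border macrophage marker. The neuronal markers summed to 3.76 to 5.15 CPM in Il3-/-5xFAD and 3.55 to 6.65 CPM in 5xFAD, the endothelial markers to 69.6 to 73.1 CPM in Il3-/-5xFAD and 73.1 to 97.6 CPM in 5xFAD, and the border macrophage markers to 99.7 to 118 CPM in Il3-/-5xFAD and 106 to 135 CPM in 5xFAD. Within 5xFAD, replicate 4 had the lowest sum of neutrophil, monocyte, astrocyte, endothelial and border macrophage markers. Replicate 5 had the lowest sum of lymphocyte, choroid plexus and neuronal markers, and replicate 6 that of oligodendrocyte markers. The part of these cells in the sterol gene values was not tested.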

How the data were processed

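The deposited table gave CPM (counts per 1000000 reads) for 20129 genes and 6 libraries. STAR, HTSeq, edgeR and the build mm9 are named, with no version or role, per the submitters' processing notes; annotation and counting mode are not given in the sources. Libraries were polyA-selected and directional, per the labels' protocols. Each deposited value was a whole number of reads (100% of values, tolerance 0.01 reads), so reads were recovered.

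The 11900 genes reaching 1 CPM in 3 or more libraries were tested with limma 3.58.1 (eBayes with trend, two-sided, log2(CPM + 1), R 4.3.3) and Benjamini-Hochberg adjustment over all of them. Alternatives were 2 pseudocounts, 2 filters, 2 scalings, 2 eBayes settings, removal of the transcript-length trend per library, each library left out in turn, and edgeR 4.0.16 (quasi-likelihood, TMM) and DESeq2 1.42.0 on recovered reads. Each test was tested on simulated data. Genotype and replicate number came from sample titles; replicates are separate pools.

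The members and lists were chosen with earlier results of these data known, and some genes of these pathways are not reported here. In each pathway list, called genes were named (up to 4), or the 2 most abundant and the 1 with the largest difference; other names were added after values were seen. The likest profiles were the 5 highest Pearson coefficients. Transcript lengths (GENCODE M21) were found for 96.8% of genes. Sc4mol, Mtap2 and Chi3l3 stood for Msmo1, Map2 and Chil3. Figures were drawn with matplotlib 3.10.9.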

Additional observations from a re-analysis of the deposited data

How the results depend on the processing

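No paired analysis was possible because the genotypes share no replicate number. None of the 7 genes passed in 16 of 17 alternatives (the filter on a mean of 5 CPM tested 5 of them); without 5xFAD replicate 4, 1 did (Sqle). Leaving out each library in turn, 0 to 1 of the 7 passed and their median log2 difference ran from -0.36 (without 5xFAD replicate 4) to -0.15 (without 5xFAD replicate 6); in all other alternatives the median stayed negative. Srebf2, Fdps, Fdft1 and Cyp51 were lower in Il3-/-5xFAD in all 17 alternatives and Sqle in all 16 that tested it.

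The count of all genes passing, 105, was 8 with no filter, 68 with that filter and also with median-ratio rescaling, 10 without the eBayes trend, 60 with the length trend removed and also with edgeR, and 605 with DESeq2; leaving out single libraries it ran from 11 to 587. The causes were not tested.

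Differences near 0 changed sign. Idi1 was -0.0023 with a pseudocount of 5, -0.023 with edgeR and -0.024 with DESeq2, and -0.11 to 0.23 with libraries left out. Lss was 0.069 with quantile normalization and -0.067 to 0.090 with libraries left out. With the length trend removed Mbtps1 was -0.0083 and Fasn -0.028, and Acly was 0.0022 with median-ratio rescaling. With libraries left out, Acly ran from -0.086 to 0.081, Dhdds from -0.084 to 0.096, Insig1 from -0.0085 to 0.13, Lbr from -0.17 to 0.048, Npc1 from -0.086 to 0.071 and Srebf1 from -0.12 to 0.027. The cause was not tested. The lowest read numbers among the 7 genes were those of Idi1, 30 to 63 per library.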
